A study of Bos taurus with 13 samples.

Results

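Follicular fluid miRNAs carried by EVs were compared between heifers and TCs that had regained a positive energy balance at weeks 9 and 10 post-calving. The TCs (transient cows) were Holstein Friesian cows with a negative energy balance at weeks 5 and 6 and a positive one at weeks 9 and 10, and 7 of them gave the 3 pools labelled late positive. The 8 heifers, young females of the same breed with a positive energy balance and no week after calving, gave the other 3 pools. Fluid was aspirated by ovum pick-up from large follicles, and extracellular vesicles (EVs), small particles that cells shed with a membrane around them, were isolated by ultracentrifugation before their small RNA was sequenced, 1 library per pool. Which animals went into which pool is not given in the sources used here, so the p-values measure the spread between pools, and calving, lactation, age and past energy balance go with the groups and cannot be told apart. The comparison covers the 279 miRNAs listed in all 6 libraries, of 311 listed in any of the 13 libraries of the series, and 227 of the 279 had enough reads to be tested.

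miRNAs are short RNAs that pair through their first bases with messenger RNAs and lower their stability and translation. In the ovarian follicle they come from the granulosa and theca cells around the oocyte, and EVs carry them into the fluid together with miRNAs that reach it from the blood. Many are typical of 1 cell type, such as miR-223 of myeloid cells, miR-122 of liver and the miR-200 family of epithelia, whereas let-7 members and miR-21 are found almost everywhere.

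Whole reads could be recovered from the deposited values. The listed miRNAs held between 183575 and 379970 reads in each of the 6 pools, which are only a part of the reads sequenced. Levels are given as CPM, the reads of a miRNA relative to the reads of all miRNAs compared, on 1 TMM scale shared by the 6 pools. On it 3 reads, taken as the smallest visible level, stood at 8.22 to 15.7 CPM. The 10 most abundant miRNAs took 46.0 to 54.0% of the reads of the listed miRNAs in a pool. miR-202, a miRNA of the gonads, was seen in every pool, at 4951, 3781 and 6713 CPM in heifers and at 5540, 4254 and 6125 CPM in TCs. Of the 3 red cell miRNAs, miR-486 and miR-451 were listed in all 6 pools, and miR-144 in heifers only, with 4 reads or fewer. Their sum ranged from 1811 to 4188 CPM in heifers and from 2732 to 11694 CPM in TCs, with the highest value in TC pool 2. That pool stood apart from TC pools 1 and 3 in many results given here, and its part is shown beside them. Over all 227 tested miRNAs it was not the only such pool. It was farthest from the TC median for 100 miRNAs and TC pool 1 for 84, while heifer pool 3 was farthest from the heifer median for 112. Its correlation across miRNAs was 0.963 with TC pool 3 and 0.930 with TC pool 1, against 0.954 between TC pools 1 and 3.

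No miRNA was called differentially expressed between TCs at weeks 9 and 10 and heifers (0%), where a call in limma needed a log2 fold change of 1 or more in size, an adjusted p-value no higher than 0.25 and an unadjusted one under 0.05. The lowest adjusted p-value was 0.336. At an unadjusted p-value under 0.05 stood 24 miRNAs, 12 with higher levels in TCs (5.29% of those tested) and 12 with lower levels (5.29%), and 15 of the 24 differed by 1 or more on the log2 scale, of which 11 were lower in TCs. Levels did not overlap between the groups for 22 miRNAs that were higher in TCs (9.69%) and 13 that were lower (5.73%). The quasi-likelihood test of edgeR on the recovered reads also called 0, with 21 at an unadjusted p-value under 0.05 and a lowest adjusted p-value of 0.327. DESeq2 on the same reads called 14 miRNAs (6.17%), 3 higher and 11 lower in TCs, all of them among the 24, with a lowest adjusted p-value of 0.0296. The call therefore depended on the test, and the 24 miRNAs are described below by their levels in every pool.

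**Figure D1:**
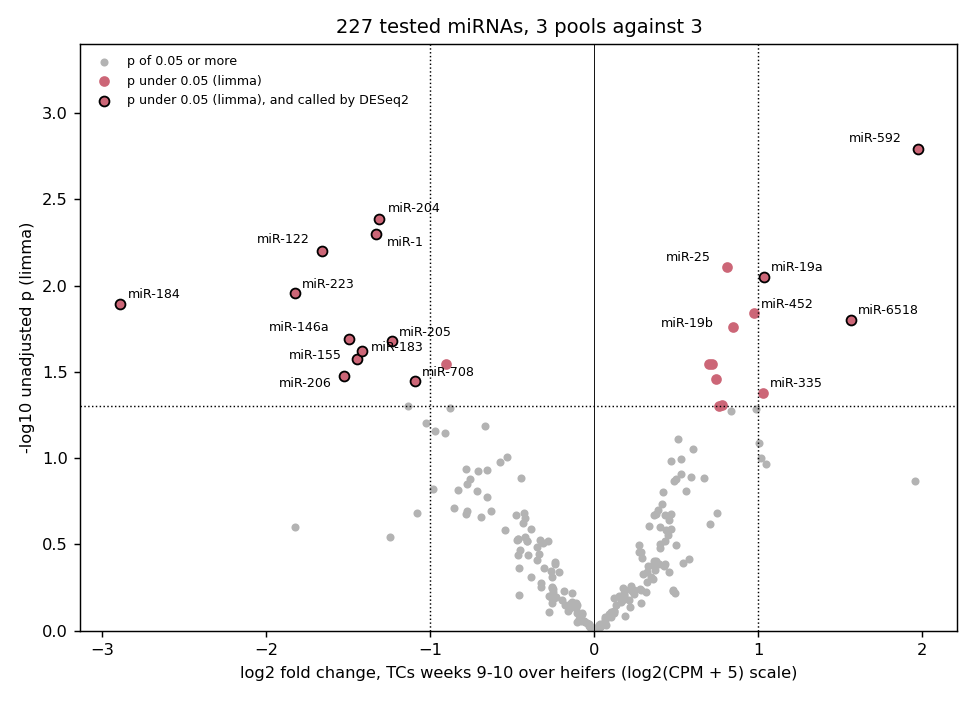
Log2 fold change of the 227 tested miRNAs, TCs at weeks 9 and 10 over heifers, against the -log10 of the unadjusted p-value of limma, with dotted lines at a p-value of 0.05 and at absolute log2 fold changes of 1. The 24 miRNAs above the horizontal line are red, and the 14 with a black rim, 11 of them on the left, were also called by DESeq2.

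Over all tested miRNAs the fold changes were centred near 0, with a median log2 fold change of 0.02, 116 miRNAs higher and 111 lower in TCs, and a range from -2.89 to 1.97. The median standard error was 0.40 and the median half-width of the 95% interval was 0.92 on the log2 scale. A typical miRNA could therefore differ by nearly 1 log2 unit either way without being detected with 3 pools per group.

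Leaving out TC pool 2 gave 25 called miRNAs, 20 lower and 5 higher in TCs, and 39 at an unadjusted p-value under 0.05. Without any other single pool, 0 to 2 were called. The 2 calls came without heifer pool 3 and were miR-592 and miR-122. Of the 25 called without TC pool 2, 15 were among the 24 miRNAs above. The other 10 were miR-142-5p, miR-150, miR-182, miR-200b, miR-200c, miR-21-5p, miR-222, miR-369-5p and miR-429, all lower in TCs, and miR-2447, which was higher.

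**Figure D2:**
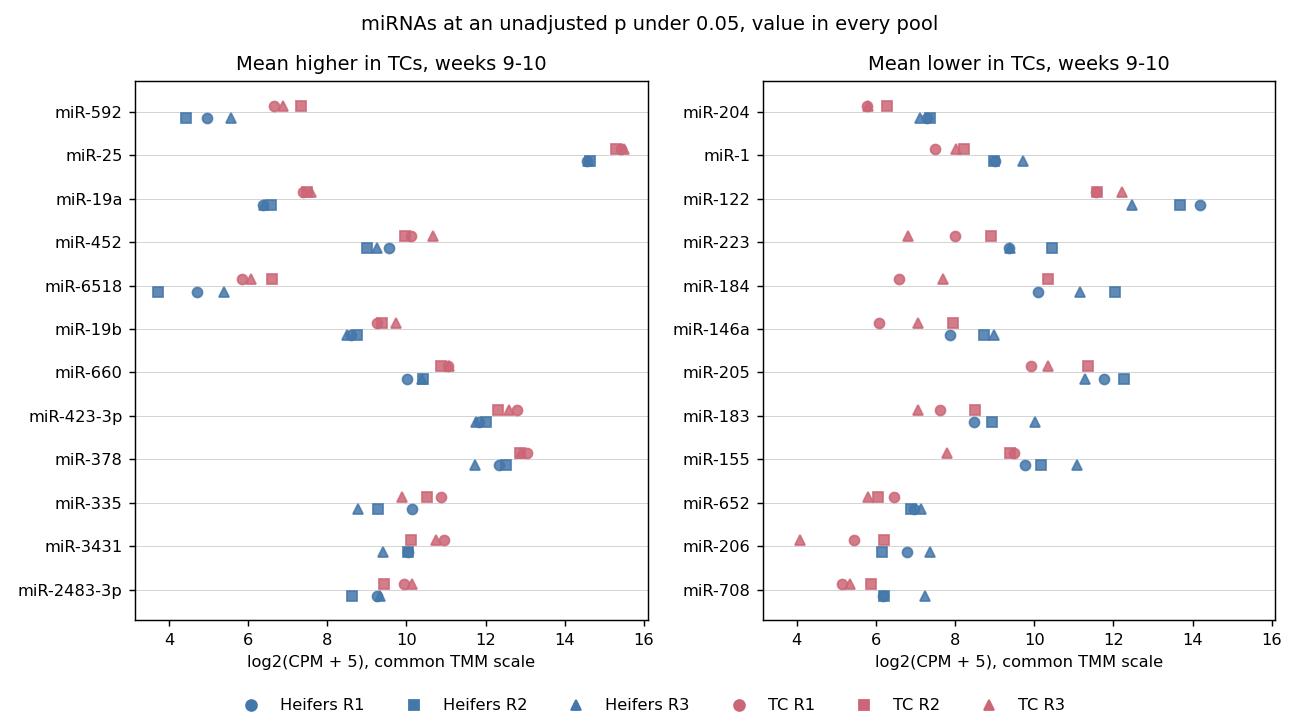
log2(CPM + 5) in each of the 6 pools for the 24 miRNAs with an unadjusted p-value under 0.05, heifers in blue and TCs at weeks 9 and 10 in red, with the pool number given by the symbol. In the right panel the red square (TC pool 2) is the highest TC value for 9 of the 12 miRNAs.

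The largest increase among the 24 was that of miR-592, with 26.1, 16.6 and 42.7 CPM in the heifer pools and 95.9, 157 and 113 CPM in the TC pools. All TC pools lay above all heifer pools, at a mean that was 4.29 times as high, though these levels rest on 5 to 15 reads in heifers and 35 to 41 in TCs. Its log2 fold change was 1.97 (SE 0.43, 95% interval 0.99 to 2.95), with an unadjusted p-value of 0.0016 and an adjusted p-value of 0.336 in limma. miR-6518 was similarly scarce, at 20.9, 8.3 and 37.0 CPM in heifers and 52.1, 91.8 and 62.6 CPM in TCs. Its groups did not overlap either, with a log2 fold change of 1.56 (SE 0.51). The exact permutation test, two-sided, gave p = 0.1 for each of the 18 miRNAs of the 24 whose groups did not overlap, which is the smallest value that 3 pools against 3 allow.

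miRNAs of the miR-17 to miR-92 clusters made up 3 of the 12 higher miRNAs. These clusters are transcribed as joint precursors and are known for promoting proliferation and survival, and miR-25 lies with miR-93 and miR-106b in a gene for a replication protein. miR-25 was the most abundant of them, with 24222, 25585 and 24751 CPM in heifers and 44313, 40113 and 46617 CPM in TCs. The heifer pools were within a narrow range and every TC pool lay well above it. The log2 fold change of 0.81 (SE 0.23, 95% interval 0.28 to 1.34) had an unadjusted p-value of 0.0078 in limma. It stayed under the fold needed for a call, and its adjusted p-value, no lower than 0.336 in limma, was above the limit of 0.25. miR-19a was at 78.4, 91.3 and 79.6 CPM in heifers and at 162, 176 and 188 CPM in TCs, a log2 fold change of 1.03 (SE 0.30). miR-19b was at 381.6, 426 and 355 CPM in heifers and at 608, 658 and 855 CPM in TCs, a log2 fold change of 0.85 (SE 0.28). Neither overlapped between the groups, but the mature forms of miR-19a and miR-19b are nearly identical and how reads were shared between them is not given in the sources used here.

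The remaining members of these clusters were less uniform. In all 9 members were tested, 8 with log2 fold changes above 0 and 1 below, with a median of 0.53 against 0.02 for all tested miRNAs, and the 3 at an unadjusted p-value under 0.05 compare with 5.29% of all miRNAs in that direction. Summed over the 9, the level was 75634, 69111 and 75940 CPM in heifers and 122867, 125594 and 123976 CPM in TCs. The sums did not overlap and varied little within a group, at 73562 ± 3857 CPM in heifers and 124146 ± 1372 CPM in TCs (SD, n = 3). Most of each sum came from miR-25, miR-92a and miR-93, of which miR-92a was at 25664, 20743 and 37083 CPM in heifers and 31057, 68864 and 52167 CPM in TCs. For miR-93 the values were 22564, 19813 and 11570 CPM in heifers and 42173, 13454 and 20694 CPM in TCs. Both overlapped between the groups, and TC pool 1 was the lowest of the TCs in miR-92a and the highest in miR-93. Neighbours in the genome did not all move alike, since miR-18a, which RefSeq places next to miR-19a, had a log2 fold change of -0.83 and miR-17-5p one of 0.21. Without each pool in turn, the list's median stayed between 0.35 and 0.77.

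The other higher miRNAs differed by smaller folds. miR-452 was at 753, 507 and 611 CPM in heifers and at 1104, 1002 and 1612 CPM in TCs, a log2 fold change of 0.97 (SE 0.31). miR-3431, its neighbour within 10000 bases in the RefSeq annotation (ARS-UCD2.0), was at 1040, 1049 and 677 CPM against 1959, 1113 and 1717 CPM, a log2 fold change of 0.78. miR-224, the third of these neighbours, had one of 0.18. For both miR-452 and miR-3431 the groups did not overlap, although heifer pool 2 and TC pool 2 nearly met in miR-3431. miR-378, encoded within a gene for a regulator of energy metabolism, was at 5150, 5849 and 3392 CPM in heifers and at 8409, 7456 and 7622 CPM in TCs, a log2 fold change of 0.74 (95% interval 0.07 to 1.41). miR-423-3p was at 3665, 4102 and 3452 CPM in heifers and at 7077, 5088 and 6221 CPM in TCs, a log2 fold change of 0.70. The groups were apart for both, whereas the other arm of the same precursor, miR-423-5p, was at 30589, 24051 and 37561 CPM in heifers and at 39493, 46168 and 33842 CPM in TCs and overlapped. miR-660 and miR-2483-3p had log2 fold changes of 0.72 and 0.76 without overlap. miR-335, from within the imprinted gene MEST, had one of 1.03, but heifer pool 1 at 1124 CPM exceeded TC pool 3 at 945 CPM.

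Among the 12 lower miRNAs, miR-204, miR-1 and miR-122 had the lowest p-values. miR-204, a miRNA of pigmented and secretory epithelia, was at 151.6, 161 and 133.6 CPM in heifers and at 49.3, 72.7 and 50.7 CPM in TCs. Its log2 fold change was -1.31 (SE 0.33, 95% interval -2.08 to -0.55), with an unadjusted p-value of 0.0041. miR-1, a miRNA of skeletal and cardiac muscle, was at 512, 501 and 842 CPM in heifers and at 175, 295 and 253 CPM in TCs, a log2 fold change of -1.33 (SE 0.35). Both were lower in every TC pool than in any heifer pool, and both were called by DESeq2, each with an adjusted p-value of 0.0468. miR-122, the dominant miRNA of hepatocytes, was at 18643, 13140 and 5664 CPM in heifers and at 3022, 3068 and 4751 CPM in TCs. The heifer pools themselves differed more than 3 times, and heifer pool 3 was close to TC pool 3. The log2 fold change was -1.66 with all pools (SE 0.45), -2.13 without heifer pool 3 and -1.33 without heifer pool 1. The muscle and the liver and gut lists did not go with them as a whole. Of the 5 tested muscle miRNAs, 2 were above and 3 below 0, with a median of -0.08 and 2 at an unadjusted p-value under 0.05, and of the 4 liver and gut miRNAs 1 was above and 3 below 0, with a median of -0.59 and 1 at that threshold, against 5.29% of all miRNAs in that direction. miR-206 was at 105, 66.4 and 159 CPM in heifers and at 38.4, 68.9 and 11.9 CPM in TCs and overlapped, while miR-133a, which lies next to miR-1, had a log2 fold change of -0.08 (95% interval -1.19 to 1.03). miR-143 and miR-145, of smooth muscle, had log2 fold changes of 0.09 and 0.43. miR-192, a liver and gut miRNA, was at 16594, 16608 and 6059 CPM in heifers and at 7469, 9200 and 10444 CPM in TCs, a log2 fold change of -0.41 (95% interval -1.38 to 0.57), and miR-215 had one of 0.17.

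Leukocyte miRNAs were the next group. Of the 7 tested, 6 had log2 fold changes below 0, 3 of them at an unadjusted p-value under 0.05 against 5.29% of all miRNAs in that direction, and the median was -0.97. miR-223, which restrains granulocyte activation, was at 653.5, 1381 and 665.3 CPM in heifers and at 249, 478 and 107.3 CPM in TCs, a log2 fold change of -1.82 (SE 0.56, 95% interval -3.11 to -0.54). miR-155, induced in activated lymphocytes and macrophages, was at 863, 1152 and 2147 CPM in heifers and at 715, 666 and 218 CPM in TCs, a log2 fold change of -1.44 (SE 0.53). Neither overlapped between the groups. miR-146a, a feedback inhibitor of inflammatory signalling, was at 230, 418 and 498 CPM in heifers and at 63.0, 241 and 128 CPM in TCs, where TC pool 2 lay above heifer pool 1. The list as a whole summed to 12966, 15966 and 12715 CPM in heifers and to 10458, 10990 and 9815 CPM in TCs, without overlap. The largest part of the sum was miR-342, at 7560, 8575 and 6469 CPM in heifers and 6244, 5482 and 7872 CPM in TCs. By itself miR-342 overlapped between the groups, with a log2 fold change of -0.21. The exception was miR-146b, at 1869 CPM in TC pool 1 and 158 to 653 CPM in the other pools, with a log2 fold change of 0.48. miR-142-3p, a defining miRNA of blood cells, stood at 5.96 to 49.7 CPM and was below the filter. Fewer vesicles from a cell type and less of a miRNA per vesicle cannot be told apart here.

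Epithelial miRNAs had the lowest median of all lists, at -1.02, with 9 of 9 tested members below 0, against 111 of all 227, and 3 at an unadjusted p-value under 0.05, against 5.29% of all miRNAs in that direction. This list holds the miR-200 family and miR-205, which keep epithelial cells from turning mesenchymal by acting on ZEB1 and ZEB2, the miR-183 cluster of sensory epithelia, and miR-184 of cornea and skin. miR-184 had the largest fold change of all 227 miRNAs, with 1087, 4202 and 2261 CPM in heifers and 90.4, 1289 and 203 CPM in TCs. Its log2 fold change was -2.89 with a wide error (SE 0.91, 95% interval -4.98 to -0.80), and TC pool 2 lay within the heifers. miR-205 was at 3492, 4933 and 2499 CPM in heifers and at 964, 2605 and 1308 CPM in TCs, a log2 fold change of -1.23 (SE 0.43). miR-183 was at 350, 487.2 and 1032 CPM in heifers and at 191.8, 360 and 128 CPM in TCs, a log2 fold change of -1.42 (SE 0.51). In both, TC pool 2 was above the lowest heifer pool, and the exact permutation test gave p = 0.2 for these and for the other miRNAs of the 24 whose groups overlapped. miR-200a, the most abundant member, was at 5207, 8016 and 4376 CPM in heifers and at 2595, 6840 and 3920 CPM in TCs. The same order held through the list: in 9 of 9 members TC pool 2 was the highest TC pool and reached the heifers, and TC pools 1 and 3 were below every heifer pool. The 9 members thus moved together over the pools and are not 9 separate results.

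**Figure D3:**
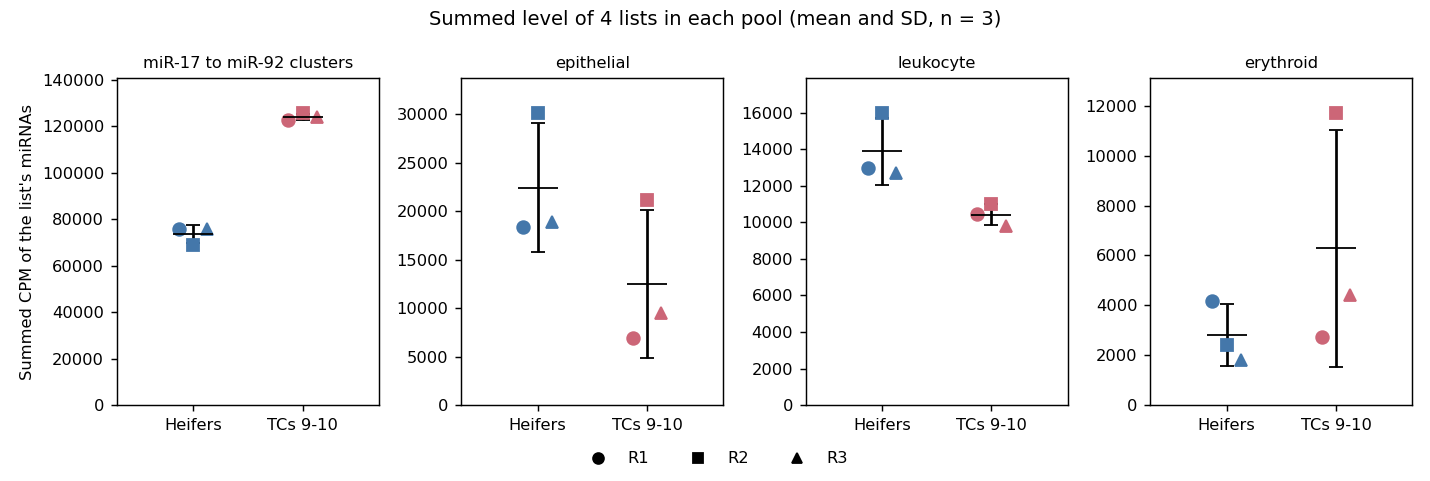
Summed CPM of the miR-17 to miR-92 clusters, the epithelial, the leukocyte and the erythroid miRNAs in each pool of heifers (blue) and TCs at weeks 9 and 10 (red), with the mean (horizontal bar) and SD of 3 pools. The cluster sums of the TCs, from 122867 to 125594 CPM, lie above all heifer pools, while TC pool 2 (square) is the highest TC pool in the other panels and overlaps the heifers in the epithelial one.

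How many of these miRNAs passed the test depended on TC pool 2. Without it, only TC pools 1 and 3 remained. Then 7 of the 9 epithelial and 5 of the 7 leukocyte miRNAs were called, all lower in TCs, and the medians were -1.57 and -1.49. In that fit 20 of all 241 tested miRNAs were called lower (8.3%), and these include the members of both lists. TC pool 2 was the highest TC pool in 9 of the 9 epithelial and 4 of the 7 leukocyte miRNAs. Leaving it out lowers the TC mean of each of these, so the calls are not separate support. Without TC pool 1 the medians were -0.71 and -0.79, and without TC pool 3 they were -0.88 and -0.65, with 0 called in either list. Without TC pool 2, miR-184 had a log2 fold change of -3.96 and an adjusted p-value of 0.0921 in limma, against -2.07 without TC pool 1, miR-200c one of -1.72 with 0.0921, and miR-223 one of -2.33 with 0.121. Of these miR-200c stood at an unadjusted p-value of 0.0501 with all pools. With TC pool 2, the sum of the epithelial list was 22435 ± 6640 CPM in heifers and 12504 ± 7602 CPM in TCs (SD, n = 3), with 6885, 21154 and 9472 CPM in TC pools 1, 2 and 3. The same pool was the highest in the red cell miRNAs, with miR-486 at 10983 CPM against 1683 to 4119 CPM in the other 5 pools and miR-451 at 712 CPM against 128 to 392 CPM. According to the paper, fluid samples with blood contamination were discarded. Whether the blood content of a pool has a part in its epithelial and leukocyte levels was not tested.

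In the remaining lists no member but miR-378 stood at an unadjusted p-value under 0.05. Together 149 of the 279 miRNAs belonged to at least 1 of 22 lists, and the medians of the lists ranged from -1.02 to 0.80. The highest was that of the 2 red cell miRNAs, and miR-221 and miR-222 had a median of -0.59. The 9 tested let-7 and miR-98 members, broadly expressed miRNAs that favour differentiation, all had log2 fold changes below 0, from -0.53 to -0.03, with a median of -0.24 and no member at an unadjusted p-value under 0.05. TC pool 1 was the highest TC pool in 9 of 9 of them, and without TC pool 2 only 5 of 9 were below 0. The 5 tested miR-99, miR-100 and miR-125 members, often encoded beside let-7, were all above 0, with a median of 0.36. With miR-99a-3p, which was below the filter, their sum was 12286, 14186 and 16446 CPM in heifers and 16736, 19838 and 18170 CPM in TCs, so that heifer pool 3 and TC pool 1 were nearly equal and the groups still did not overlap. Of the 10 tested miR-2284 and miR-2285 members, families particular to ruminants, 8 were above 0, with a median of 0.41, and miR-2284t-5p came closest to the threshold at a log2 fold change of 0.98 (95% interval -0.01 to 1.98). The miR-10 and miR-196 members of the HOX clusters were 4 of 4 below 0, with a median of -0.43. No member of these last 4 lists passed an unadjusted p-value of 0.05.

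**Figure D4:**
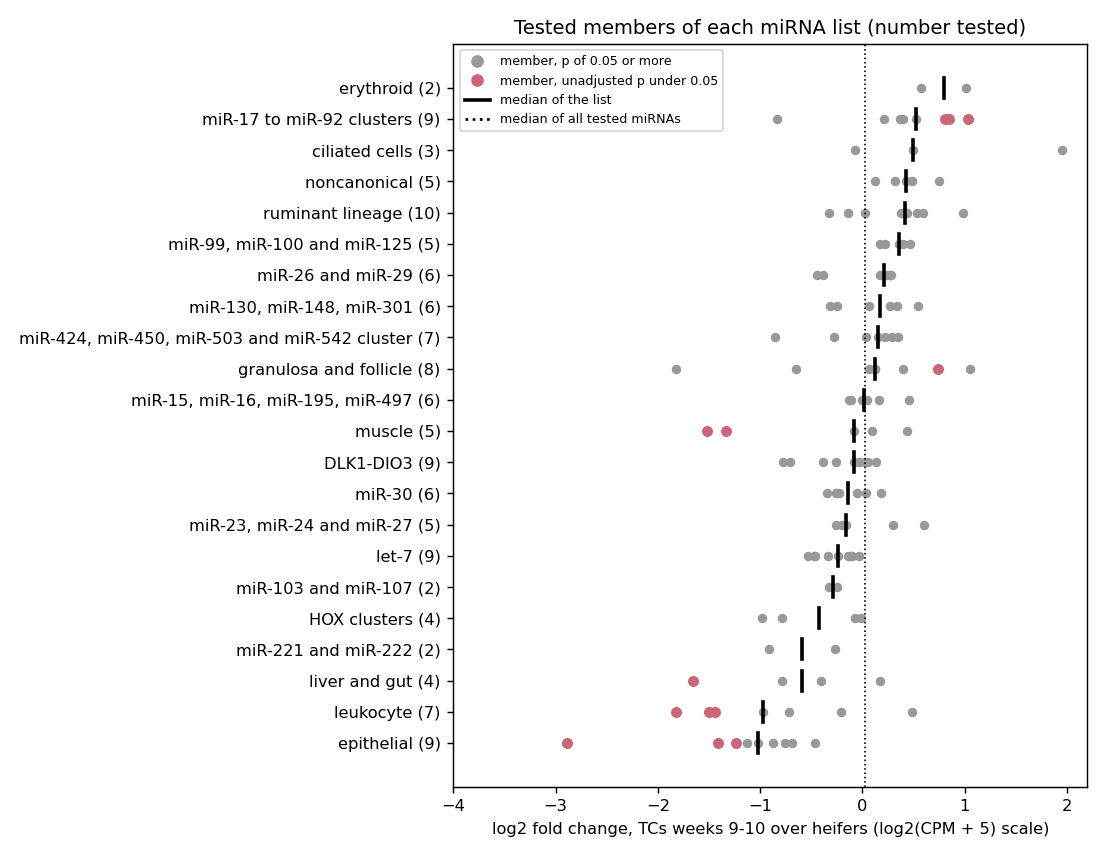
Log2 fold change, TCs at weeks 9 and 10 over heifers, of each tested member of the 22 miRNA lists, sorted by the median of the list (black bar), with members at an unadjusted p-value under 0.05 in red and the median of all 227 tested miRNAs as a dotted line. The epithelial and leukocyte lists lie lowest, with medians of -1.02 and -0.97, and the erythroid list of 2 miRNAs and the miR-17 to miR-92 clusters highest, with 0.80 and 0.53.

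A further 17 miRNAs had groups that did not overlap although their unadjusted p-values were 0.05 or higher, 11 of them higher and 6 lower in TCs, with log2 fold changes of 0.27 to 0.98 in size. miR-181a and miR-181b, related miRNAs known from lymphocyte development, were both among the lower ones. miR-181a was at 2285, 2090 and 1638 CPM in heifers and at 1400, 1522 and 918 CPM in TCs, a log2 fold change of -0.66 (95% interval -1.38 to 0.05). miR-181b was at 523, 534 and 486.2 CPM in heifers and at 367, 444 and 250.4 CPM in TCs, a log2 fold change of -0.57 (95% interval -1.29 to 0.15). Here TC pool 2 was again the highest TC pool but stayed under the heifers. Of the higher ones, miR-128, a miRNA rich in brain, was at 5950, 6616 and 7427 CPM in heifers and at 10036, 8397 and 10000 CPM in TCs, a log2 fold change of 0.51 (95% interval -0.07 to 1.09). These 3 were chosen after their values were seen.

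The miRNAs listed for the follicle itself went both ways. Of 8 tested, 6 were above and 2 below 0 and the median was 0.12, with a range from -1.82 for miR-132 to 1.05 for miR-378b. miR-202 had a log2 fold change of 0.07 (95% interval -0.65 to 0.78) and miR-31 one of 0.12 (95% interval -0.46 to 0.70), and only miR-378 stood at an unadjusted p-value under 0.05. miR-21-5p, an inhibitor of cell death in granulosa cells, was the most abundant miRNA of all, with 94795, 149865 and 129580 CPM in heifers and 52292, 153986 and 59094 CPM in TCs. TC pools 1 and 3 were below every heifer pool and TC pool 2 above them, so that the log2 fold change was -0.65 with all pools (95% interval -1.64 to 0.34) and -1.14 without TC pool 2. The X-linked miRNAs of the miR-424, miR-450, miR-503 and miR-542 cluster, known from growing follicles, had 5 members above and 2 below 0 and a median of 0.15.

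The 10 most abundant miRNAs over both groups were miR-21-5p, let-7b, miR-16b, let-7a-5p, miR-92a, miR-320a, miR-423-5p, miR-25, miR-143 and let-7i. miR-25 was the only one of them at an unadjusted p-value under 0.05. let-7b was at 87769, 110593 and 56733 CPM in heifers and at 85193, 48127 and 50110 CPM in TCs, a log2 fold change of -0.47 (95% interval -1.28 to 0.33). miR-16b, of a family that slows the cell cycle, was at 74672, 80233 and 52531 CPM in heifers and at 94952, 46685 and 70176 CPM in TCs, a log2 fold change of -0.01 (95% interval -0.77 to 0.76). Both ranges overlapped widely. For let-7a-5p, let-7i, miR-143 and miR-320a the log2 fold changes lay between -0.11 and 0.12, with 95% intervals that reached at most 1.13 from 0.

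Some miRNAs varied more between pools of a group than any difference between the groups. The median SD of log2(CPM + 5) was 0.40 in heifers and 0.47 in TCs, and it was over 1 for 11 miRNAs in heifers and 28 in TCs. miR-132, a miRNA induced by cyclic AMP and gonadotropins, was at 1014, 263 and 6773 CPM in heifers and at 2984, 164 and 77.5 CPM in TCs. The highest and the lowest pool of each group differed more than 20 times, and its log2 fold change of -1.82 had a 95% interval from -5.22 to 1.57. miR-449a, of the family that drives the formation of multiple cilia, was at 0, 0 and 71.1 CPM in heifers and at 74.0, 95.6 and 8.94 CPM in TCs, and its relative miR-34c was at 47.1, 47.1 and 554 CPM and at 151, 302 and 83.5 CPM. Heifer pool 3 was the only heifer pool with reads of miR-449a and also had the highest miR-34c. miR-1246, reads of which can also come from a small nuclear RNA, was at 1576, 18327 and 12584 CPM in the TC pools and 3399 to 8922 CPM in heifers.

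To see which differences from heifers were particular to weeks 9 and 10, the TCs at weeks 9 and 10 were compared with the TCs at weeks 5 and 6 (3 pools, 11 cows, early negative by label). Both times had been set against the same heifer pools, so their fold changes over heifers are not independent, and only the direct comparison of the 2 times was tested. Whether the cows of weeks 9 and 10 were among the 11 of weeks 5 and 6 is not given in the sources used here. The fit treated the pools of the 2 times as independent. The direct comparison called 0 of 224 miRNAs (0%), with 12 at an unadjusted p-value under 0.05 (5.36%) and a lowest adjusted p-value of 0.573 in limma. Of the 24 miRNAs above, 4 were among these 12, namely miR-592, miR-19a, miR-2483-3p and miR-652. On a scale shared by the 9 pools, miR-592 was at 25.9, 33.8 and 47.8 CPM in the TC pools of weeks 5 and 6, its log2 fold change over heifers at that time was 0.32, and the log2 fold change between the times was 1.60 (95% interval 0.57 to 2.64, unadjusted p-value 0.0068). miR-19a was at 70.2, 116 and 67.7 CPM at weeks 5 and 6, a log2 fold change of 1.01 between the times (95% interval 0.01 to 2.02), against -0.02 between weeks 5 and 6 and heifers. miR-2483-3p had 0.81 between the times. miR-652 was at 155.2, 73.3 and 438 CPM at weeks 5 and 6, so that its log2 fold change of -1.39 rested on pools that differed from each other by nearly 6 times. For the same comparison the paper names miR-592 and miR-451 as lower at the later time, and miR-34c and miR-449a as higher. The signs found here were the opposite. Between the times miR-451 had a log2 fold change of 2.02, miR-34c one of -1.32 and miR-449a one of -2.16. The 95% intervals of miR-34c and miR-449a include 0. The reason for the opposite signs was not tested.

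Of the 24 miRNAs, 20 had the same sign over heifers at weeks 5 and 6, and 10 passed the criteria for a call there in limma. The share of all tested miRNAs called at weeks 5 and 6 is not given here. Since the heifers are shared, these counts are not separate support. The lower miRNAs included some with like and some with unlike values at the 2 times. miR-204 had log2 fold changes over heifers of -1.65 at weeks 5 and 6 and -1.31 at weeks 9 and 10, and the difference between the times was 0.31 (95% interval -0.68 to 1.30). miR-223 had -1.80 and -1.82, with a difference of -0.06 (95% interval -1.32 to 1.20). miR-205 had -1.38 and -1.23, with a difference of 0.11 (95% interval -1.12 to 1.33). These intervals reach beyond 1 log2 unit in either direction for miR-223 and miR-205, so the 2 times were not shown to be alike. miR-708 had -2.08 and -1.09, with a difference of 0.97 (95% interval -0.48 to 2.41), and miR-184 had -3.83 and -2.89, with a difference of 0.91 (95% interval -2.26 to 4.08). Of the higher miRNAs, miR-6518 had 1.46 and 1.56, with a difference of 0.05 (95% interval -0.97 to 1.08). For miR-25 the values were 0.26 and 0.81, with a difference of 0.51 (95% interval -0.20 to 1.22). miR-16b, the third most abundant miRNA, was at 34511, 39063 and 35504 CPM at weeks 5 and 6, below all pools of weeks 9 and 10, with a log2 fold change of 0.87 between the times (95% interval 0.01 to 1.73).

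**Figure D5:**
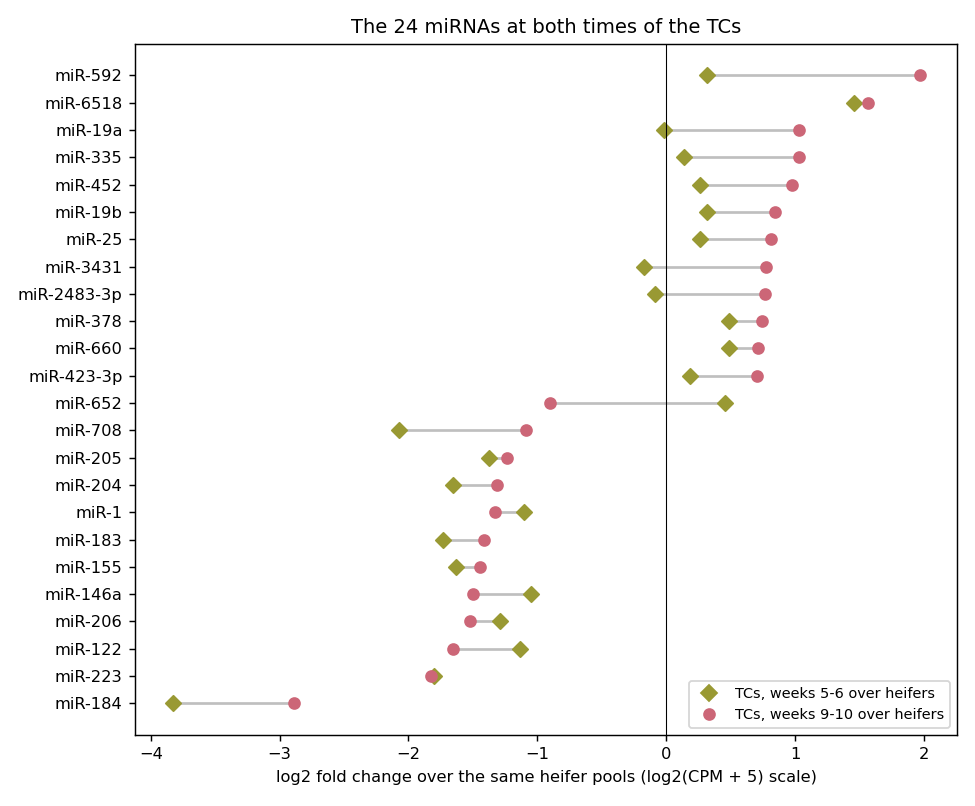
Log2 fold change over the same 3 heifer pools of the 24 miRNAs, for TCs at weeks 5 and 6 (diamonds) and at weeks 9 and 10 (circles), joined by a grey line. The longest lines among the higher miRNAs are those of miR-592, from 0.32 to 1.97, and miR-19a, from -0.02 to 1.03, and both points share the heifers and are not independent.

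The 52 miRNAs that did not pass the filter had at most 3 to 22 reads in any pool, with a median of 9, and were not tested. At these low counts the groups did not overlap in CPM for let-7a-3p, at 10.5, 8.3 and 11.4 CPM in heifers and 13.7, 15.3 and 17.9 CPM in TCs (2 to 6 reads), or for miR-28, which was lower in TCs. Differences among them were not detectable at this depth.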

How the data were processed

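The authors prepared libraries from EV RNA with the QIAseq miRNA kit, demultiplexed them with bcl2fastq, checked them with FastQC, trimmed adaptors with Cutadapt 1.11, mapped reads with Bowtie2 2.2.2 to the bovine genome (UMD3.1), assigned them to miRBase entries and applied TMM normalization in edgeR. The deposited values are TMM-normalized CPM per library, not logged. Before deposit, the authors had normalized the signal values of every library with TMM and scaled them as CPM, without logs. Nothing in the sources used here shows that the authors made any column differently. Here the 6 libraries were handled alike, whatever their deposited total, from 926035 in heifer pool 1 to 1100825 in TC pool 2.

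All values of the 6 libraries (1734 of 1734) came out as whole numbers of reads, within 0.1 read, and were converted to reads. Reads of the miRNAs listed in all 6 libraries were scaled together with TMM (edgeR 4.0.16, R 4.3.3), filtered with filterByExpr (minimum count 10, minimum total 15) and compared with limma 3.58.1 with a mean-variance trend on log2(CPM + 5), without covariates, with Benjamini-Hochberg adjustment. Because 5 CPM were added before taking logs, fold changes understate those of scarce miRNAs. DESeq2 1.42.0 and edgeR's quasi-likelihood test on the recovered reads were alternatives, as the deposited unit is not counts. The procedure was tested on simulated reads. Whether the molecular identifiers of the kit were counted is not given in the sources used here, so the smallest visible level covers counting error only.

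The miRNAs named are those at an unadjusted p-value under 0.05, the 10 most abundant, at most 4 of each list (the most abundant and those of lowest p-value) and the 5 with the largest spread within a group. A few more are named where a count or a neighbour needed them, chosen after their values were seen. The miRNAs compared and the lists were chosen with earlier results of these data known. RefSeq gene names (ARS-UCD2.0) matched 227 of the 227 tested miRNAs and served only to find neighbours within 10000 bases. Same-numbered pools of the 2 groups were compared through their deviations from the group means. Alternative scalings, filters, pseudocounts and covariates were tried, and each pool was left out in turn. miRNA sequences were not used here.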

Additional observations from a re-analysis of the deposited data

Results flagged for a closer look

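Groups of 3 pools are too small for a test of single outlying pools, and none of the 24 miRNAs at an unadjusted p-value under 0.05 met the conditions for a difference between the times of the TCs. Some miRNAs stood outside the comparison because they were listed for the heifers and not for the TCs at weeks 9 and 10, and 4 of them had more than 3 reads in every heifer pool. miR-21-3p had 11, 7 and 13 reads (lowest 7), miR-193b 8, 6 and 8 reads (lowest 6), miR-96 4, 4 and 6 reads (lowest 4) and miR-500 4, 5 and 4 reads (lowest 4). These 4 were also listed for the TCs at weeks 5 and 6. How many reads they had in the TCs at weeks 9 and 10 was not analysed here. miR-96 belongs to the miR-183 cluster of the epithelial list.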

How the results depend on the processing

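With 3 pools per group, a difference of about 1 log2 unit was the smallest that a typical 95% interval could separate from 0, and scarce miRNAs rest on few reads. Against heifers, 0 miRNAs were called with all pools in limma, and also with a pseudocount of 1, without the filter, with DESeq2 size factors, with the deposited values as they stand, with edgeR's quasi-likelihood test and with the day on which RNA was measured in the fit. Scaling by total reads called 6, DESeq2 on the recovered reads 14 and all 13 libraries in 1 fit 4, and the cause was not tested. Leaving out 1 pool gave 0 to 25 calls and 10 to 39 miRNAs at an unadjusted p-value under 0.05, with 39 without TC pool 2, 14 without heifer pool 2 and 10 without TC pool 3. Scaling by total reads placed 10 higher and 16 lower miRNAs at that threshold, against 12 and 12. The 24 named miRNAs kept their direction in all 384 refits, 16 for each miRNA, and 48 of these refits passed the criteria for a call. They had been picked by their unadjusted p-values in limma from the same pools that the refits used. Their direction was thus largely set beforehand, and keeping it is not separate support. Of 352 list medians recomputed, 348 moved by less than the SD between pools. That SD is the larger of the 2 groups and is wide where pools disagree. Several medians near 0 changed sign, as did that of the ciliated cell list, from 0.49 to -0.12 without heifer pool 1. The median of miR-26 and miR-29 went from 0.21 to -0.21 without the same pool. Those of the epithelial, leukocyte and miR-17 to miR-92 lists kept their sign.

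With the replicate number as a block, 7 miRNAs were called against heifers and 21 stood at an unadjusted p-value under 0.05. The numbers were not shown to pair the pools: same-numbered pools had correlations of their deviations of 0.014, -0.148 and -0.167, and no heifer pool correlated best with the TC pool of its own number. For the 2 times of the TCs the block gave 0 calls and 8 at an unadjusted p-value under 0.05.

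Between the 2 times of the TCs, DESeq2 on the recovered reads called 8 miRNAs and the other alternatives with all pools 0. At an unadjusted p-value under 0.05 stood 22 with edgeR, 26 with DESeq2 and 7 with the day of RNA measurement, against 12. Scaling by total reads placed 15 higher and 1 lower miRNA there, against 7 and 5, as it moved the median log2 fold change from -0.05 to 0.17. Leaving out 1 pool gave 0 to 22 calls and 4 to 30 miRNAs at that threshold, both highest without TC pool 2 of weeks 5 and 6. The comparison of seed families was not run, because it needs miRNA sequences.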
